A study of Homo sapiens with 6 samples.

Results

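The stretch described here is the part of chromosome 21 that the GRCh37 assembly carries below position 11200000, on the short arm (21p), where the stretch between about 9825000 and 9830000 was taken as a copy of the 45S pre-ribosomal RNA. This identity comes with the choice of the region and was not checked against GRCh37 sequence or annotation, and "45S stretch" below means these positions. The members were all eCLIP clusters on chromosome 21 ending below 11200000, a rule of position that uses no measured value. They numbered 26 of the 205520 clusters of the series, with 16 of 102843 in FLAG-Angel1 replicate 1, 10 of 96960 in FLAG-Angel1 replicate 2 and 0 of 5717 in the FLAG-only IP. The name of a ribosomal RNA repeat fits few of them, since 3 of the 26 lay in the 45S stretch and 23 lay beyond it on the opposite strand. They are therefore called the 21p clusters below.

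The series holds 6 libraries from HEK293, a human embryonic kidney line. In eCLIP, UV light joins protein to RNA in the cell, an antibody pulls down the protein with its RNA (the IP), and fragments of the same size range taken before that step (the size-matched input) give the background. The FLAG-Angel1 libraries, an IP and an input for each of 2 replicates, come from a stable Flp-In T-REx line with N-terminally tagged Angel1 behind a tetracycline-regulated promoter, titrated toward the endogenous level. The FLAG-only IP and its input stand as the control, described in the study's methods as cells with no FLAG fusion protein, although their genotype label also reads FLAG-Angel1. All 6 carry the same label for induction (5 ng/mL tetracycline, 24 h) and for cross-linking (254 nm, 400 mJ/cm2). The methods mention a sample without UV that no label identifies. Each cluster has a log2 fold of IP over its own input and a P, and was called enriched at a P under 0.05 with a log2 fold above 0.

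The 18S and 28S ribosomal RNAs are made in the nucleolus by RNA polymerase I as parts of the 45S precursor. Its genes lie in tandem repeats on the short arms of the acrocentric chromosomes. Cleavage frees the 18S RNA of the small ribosomal subunit and the 28S RNA of the large subunit with its short partner, while the external and internal transcribed spacers are discarded. The GRCh37 assembly holds only fragments of these arrays, and reads from any repeat can align to whichever copies the assembly holds. Angel1 is a homolog of the CCR4 deadenylase that was studied for its part in the decay of mRNAs with stalled ribosomes, which makes the RNA of the ribosome itself a relevant background.

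The sequences under the clusters are not shown, because no GRCh37 genome was used. RefSeq lists the 45S precursor on chromosome 21 of another build, GRCh38.p14, as 3 genes, RNA45SN1, RNA45SN2 and RNA45SN3, of 13351, 13315 and 13309 nt. The external spacer before the 18S RNA takes up 3631 to 3654 nt of each, and 2 of these spacers hold a miRNA gene. MIR3648-1 ends 978 nt before the 18S RNA of RNA45SN2, and MIR10396B ends 501 nt before that of RNA45SN1. The mature sequences of these miRNAs are given as examples of sequence linked to the 45S genes, from RefSeq (5′ to 3′) with the seed, bases 2 to 8, in capitals:
hsa-miR-3648: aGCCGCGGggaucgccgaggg
hsa-miR-10396b-5p: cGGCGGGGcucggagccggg
hsa-miR-10396b-3p: gGCCCCGGgcccucgaccggac
The share of G and C was 81.0% in hsa-miR-3648, 90.0% in hsa-miR-10396b-5p and 86.4% in hsa-miR-10396b-3p, against a median of 52.2% over the 2370 mature miRNAs of that table. The 3 have different seeds. Sequence for hsa-miR-3648 was listed under another copy of the gene, MIR3648-2, which lies in none of the 3 annotated 45S genes, so that only the hsa-miR-10396b sequences are read from a 45S spacer. Positions were not converted between builds, so whether any cluster lies over these genes was not determined.

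No 21p cluster was enriched. This held for 0 of 16 in replicate 1, where 11.7% of all clusters were enriched, and for 0 of 10 in replicate 2, where 40.7% were. The FLAG-only IP, with 91.8% of its clusters enriched, had no 21p cluster to score. A count of 0 allows a share of up to 18.8% among 16 clusters and 30% among 10 (Wilson 95% intervals, 0% to 19.4% and 0% to 27.8%). In replicate 1 this limit lies above the share of the whole list, so that a lower share on 21p was not detectable with 16 clusters. In replicate 2 it lies below the share of the list. These limits cover counting error only, and clusters of a library are not replicates. The whole list is also not matched to 21p in log2 fold. Of the 10 clusters of replicate 2, 3 lay at or below 0, where none can be called enriched. Another 5 lay above 0 and up to 1, where 1.05% of the clusters outside 21p were enriched. The remaining 2 lay between 1 and 2, where that share was 25.5%. The FLAG-only library has no second replicate, so no P was calculated between libraries. At the threshold of 0.001, used in the study for reproducible peaks, 4.22% of all clusters passed in replicate 1 and 17.0% in replicate 2, and again no 21p cluster passed in either. There were accordingly no reproducible peaks on 21p.

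The log2 folds on 21p were low as well. Their median was -0.23 in replicate 1 (quartiles -0.65 and 0.15), against 0.57 over the whole list. In replicate 2 it was 0.23 (quartiles -0.10 and 0.69), against 1.73 over the whole list. The difference from the clusters outside 21p was -0.81 in replicate 1 and -1.50 in replicate 2. The direction was the same in both replicates. The rest of chromosome 21 did not share these values, with medians of 0.77 over 1849 clusters in replicate 1 and 1.93 over 1907 in replicate 2, of which 17.3% and 50.9% were enriched. A log2 fold of 0 or below was found in 9 of the 16 clusters of replicate 1 (56.2%, against 31.2% of the list) and in 3 of the 10 of replicate 2 (against 2.59% of the list). Scales of the log2 fold differ between the libraries with their ratio of IP to input, so the replicates are set beside their own lists and not beside each other.

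**Figure D1:**
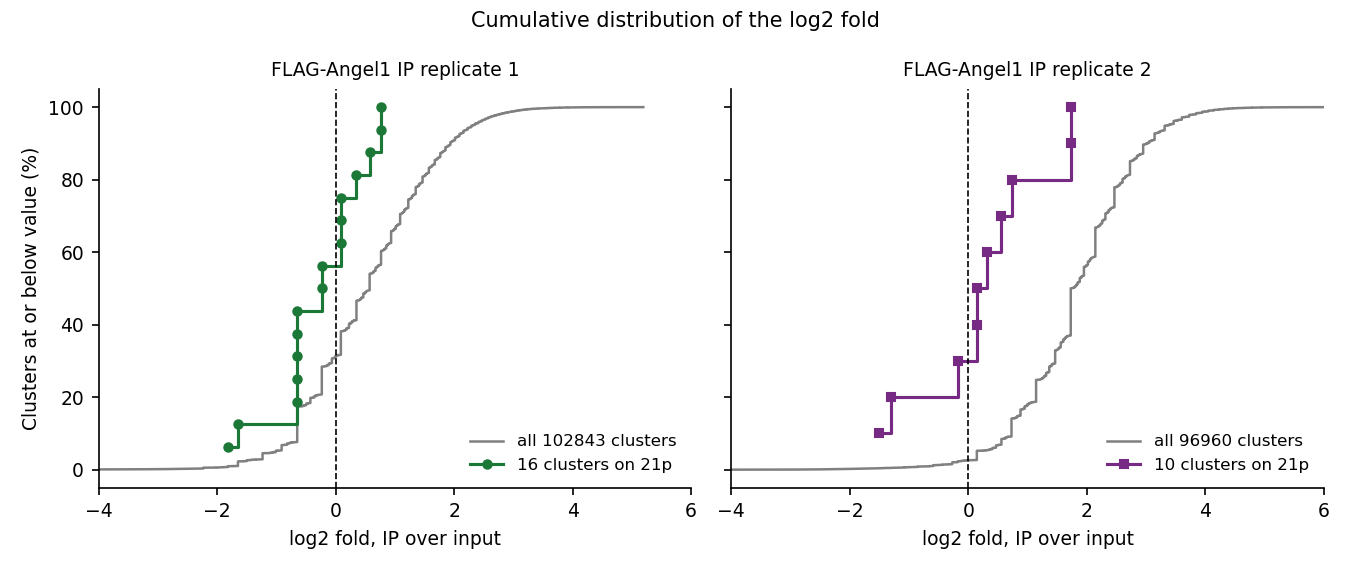
Cumulative share of clusters (y axis, %) at or below a log2 fold of IP over input (x axis), for the whole list (grey) and the 21p clusters (colored steps) in FLAG-Angel1 replicate 1 (left) and replicate 2 (right). In both panels the 21p clusters lie to the left of the list, with medians of -0.23 against 0.57 and 0.23 against 1.73.

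The lists hold no read counts, but the log2 folds of 99.9% of the clusters in replicate 2 and of 102823 of the 102843 in replicate 1 lay, within a relative tolerance of 1e-10, on a ratio of whole numbers of IP to input reads. The most frequent log2 fold was taken as a ratio of 3 reads to 1. This gives the ratio of the sizes of the IP and input libraries as 4.70 in replicate 1, 0.904 in replicate 2 and 0.0646 for FLAG-only, and the reads of each cluster in lowest terms, which are inferred and are the least the cluster can hold. Where the authors' P was below 1, as for 5 clusters of replicate 2, the read numbers could also be found from it. Elsewhere P was not used to limit the reads. A cluster there was taken as able to hold a multiple of its ratio, which would narrow its interval. An input value of 1 may be a single read or a minimum set by the pipeline. Intervals of the log2 fold below are exact binomial 95% intervals on these reads and cover counting error only.

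The 45S stretch held 3 clusters, all in replicate 2 and all on the plus strand, within 393 nt. The first lay on chromosome 21 from 9825847 to 9825880 and had a log2 fold of -1.51. Its ratio was 13 IP to 41 input reads, and the interval of the log2 fold ran from -2.54 to -0.58. The next abutted it, from 9825881 to 9825915, with a log2 fold of -1.31 and a ratio of 55 to 151 (interval -1.78 to -0.86). Both intervals lay below 0, so that these clusters held fewer IP reads, relative to the library sizes, than input reads. The authors' P is 1 for both, as it is for every cluster at or below 0, and does not score such a deficit. Abutting clusters can share reads, and these are not independent of each other.

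The last cluster of the stretch, from 9826224 to 9826239, stood 308 nt further on and had a log2 fold of 0.31. Its authors' −log10 P of 0.28 was met by 27 IP over 24 input reads and by no other multiple of their ratio, 9 to 8. The interval, -0.53 to 1.17, held 0. The stretch thus held clusters on both sides of 0, of which only the pair below 0 was separated from 0 by its counting interval. Among 500 nt windows, the pair, 69 nt wide in all, had its centres in the window from 9825501 to 9826000, and the last cluster, 16 nt wide, in that from 9826001 to 9826500.

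Both clusters of the pair stood near the bottom of the list of replicate 2, in which 0.402% of all clusters had a log2 fold below that of the first and 0.500% below that of the abutting one. Their input in lowest terms was also high. An input of at least 41 reads in lowest terms was found in 604 clusters of replicate 2 (0.623%) and one of at least 151 in 168 (0.173%). Lowest terms understate the input of clusters whose IP and input reads share a factor. These shares are therefore lower limits for clusters with that much input. No cluster was listed in the 45S stretch in replicate 1 or in the FLAG-only IP, nor on its minus strand in any library. The lists give no read number where no cluster was called, so the level there is not known. The values of the 45S stretch therefore rest on 1 library. Whether reads matching ribosomal RNA were set aside before alignment is not given in the sources used here. The clusters may therefore hold only part of the reads from a 45S repeat.

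**Figure D2:**
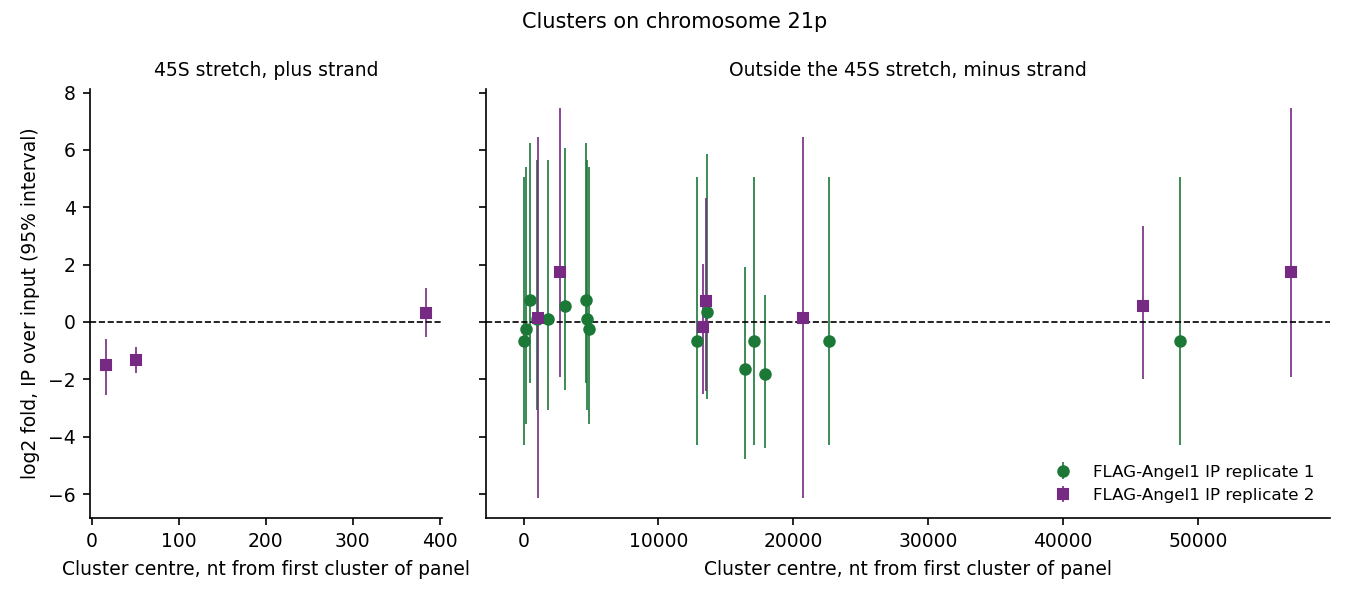
Log2 fold of IP over input (y axis) of each 21p cluster by its distance in nt from the first cluster of the panel (x axis), for the 45S stretch on the plus strand (left) and the clusters beyond it on the minus strand (right). Points are clusters of FLAG-Angel1 replicate 1 (circles) and replicate 2 (squares), bars are exact binomial 95% intervals on the inferred reads, and only the pair at the left end of the left panel has bars clear of 0.

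The other 23 clusters lay on the minus strand between 9908978 and 9965950, 82738 nt beyond the last cluster of the 45S stretch. They spanned 56973 nt, with 16 clusters in replicate 1 and 7 in replicate 2, and no cluster of either replicate on the plus strand there. The minus strand carried 48.6% of the whole list in replicate 1 and 48.4% in replicate 2. No gene is named for this stretch, since no GRCh37 annotation was used. The clusters were wider in replicate 1, from 37 to 93 nt with a median of 68 nt, than in replicate 2, from 20 to 76 nt with a median of 46 nt. Over the whole lists the median widths were 60 nt and 50 nt, a difference in the same direction. They covered 1082 nt in replicate 1 and 343 nt in replicate 2.

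In replicate 1 the highest log2 fold was 0.77, with a ratio of 8 to 1, in the clusters from 9909416 to 9909465 and from 9913530 to 9913622. The next was the cluster from 9912008 to 9912090, with 0.57 and a ratio of 7 to 1. A ratio of 6 to 1, with a log2 fold of 0.35, was found from 9922544 to 9922632. The ratio of 5 to 1, a log2 fold of 0.09, occurred in 3 clusters, 4 to 1 (-0.23) in 2 and 3 to 1 (-0.65) in 5. The lowest were the clusters from 9925394 to 9925466, with 3 to 2 and a log2 fold of -1.65, and from 9926864 to 9926918, with 4 to 3 and -1.82. The authors' P was 1 for all 16. In all 16 the interval of the log2 fold held 0 at the reads in lowest terms, so that neither enrichment nor depletion was detectable at that depth. Clusters anywhere in the list with the same log2 folds numbered 40540, of which 4 were enriched (0.00987%). Those at log2 folds below 0, such as the 10112 at -0.65, could not be called enriched by definition. The share is low in part for that reason.

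In replicate 2 the highest log2 fold was 1.73, with 3 IP reads over 1 by the authors' P, in the clusters from 9911649 to 9911693 and from 9965879 to 9965950. Their −log10 P was 0.45, the highest on 21p. Of the 12646 clusters of the list with this log2 fold, 1170 were enriched (9.25%), while 8338 carried the same P as these clusters. From 9922487 to 9922506 the log2 fold was 0.73, with 3 IP reads over 2. The cluster from 9954890 to 9954965 had 0.56, with 4 over 3. A ratio of 1 to 1, a log2 fold of 0.14, was found from 9910014 to 9910063 and from 9929675 to 9929720. The only cluster of the 7 below 0 lay from 9922257 to 9922290, with -0.18 and a ratio of 4 to 5. The intervals of all 7 held 0.

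The minus-strand clusters had at most 8 IP and at most 5 input reads in lowest terms or by P, whereas each cluster of the 45S stretch had from 13 to 55 IP and from 24 to 151 input reads on the same terms. The plot of IP against input reads shows these groups apart. Among list clusters with a log2 fold above 0 and up to 1, where 7 of the 16 clusters of replicate 1 and 5 of the 10 of replicate 2 fell, 0.879% and 1.05% of the clusters outside 21p were enriched. Between 1 and 2, where only the pair of replicate 2 with 1.73 fell, the share outside 21p was 25.5%. No 21p cluster reached a log2 fold of 2.

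**Figure D3:**
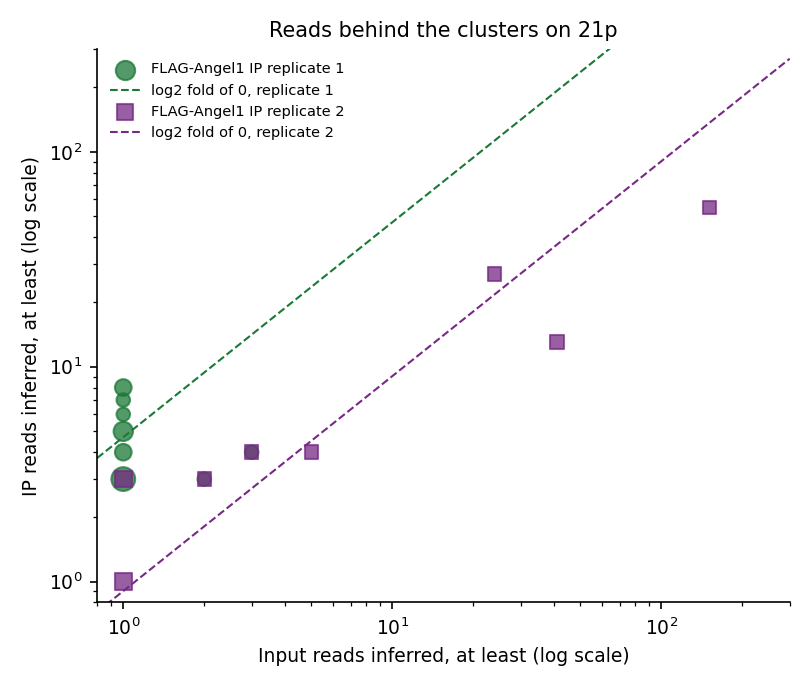
IP reads (y axis) against input reads (x axis) inferred for the 21p clusters, in lowest terms or from the authors' P, on log scales. Symbols grow with the number of clusters at a point, and dashed lines mark a log2 fold of 0 at the ratio of library sizes, 4.70 in replicate 1 and 0.904 in replicate 2. The 3 clusters of the 45S stretch lie at the right, 2 of them below the line of replicate 2, and the others lie at up to 8 IP and 5 input reads.

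The replicates met at 1 place on 21p. The clusters from 9909977 to 9910031 in replicate 1 and from 9910014 to 9910063 in replicate 2 overlapped by 18 nt, with log2 folds of 0.09 and 0.14, and neither was enriched. Of the 21p clusters, 6.25% in replicate 1 and 10.0% in replicate 2 thus overlapped a cluster of the other replicate on the same strand, against 52.6% and 54.6% over the whole lists. These lists also hold clusters with higher log2 folds and more reads, and the shares were not matched for either. Since 1 pair remained, no correlation of the log2 fold was calculated. On the minus strand, the nearest cluster of the other replicate was a median of 1400 nt away for replicate 1 and 314 nt for replicate 2, and 4 of the 16 and 4 of the 7 had one within 500 nt.

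By windows of 500 nt, the minus-strand clusters occupied 17 windows, 12 in replicate 1 and 6 in replicate 2, with 1 in common. A cluster was assigned to the window of its centre and can reach past its edge. The fullest windows held 3 clusters each, all of replicate 1. These were 9909001 to 9909500, whose clusters measured 160 nt in all, with log2 folds from -0.65 to 0.77, and 9913501 to 9914000, whose clusters measured 217 nt in all, with log2 folds from -0.23 to 0.77. In replicate 2 the fullest was 9922001 to 9922500, with 2 clusters that measured 54 nt in all. None of the 17 minus-strand and 2 plus-strand windows held an enriched cluster.

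Toward the limit of the rule, the last 21p cluster ended at 9957658 in replicate 1 and at 9965950 in replicate 2. The next clusters on chromosome 21 began at 15431718 in replicate 1, with a log2 fold of -1.23, and at 15428741 in replicate 2, with -0.27. Placing the limit elsewhere in these gaps, 5474059 nt in replicate 1 and 5462790 nt in replicate 2, would not change the members. The first cluster of the FLAG-only IP on the chromosome began at 15491257.

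For comparison, the lists were searched for other places that could hold ribosomal RNA. None of the 3 lists held a cluster on an unplaced or alternate contig, and the lists do not show whether reads could be placed there. On chromosome Y, where RefSeq lists the ribosomal RNA pseudogenes RNA5-8SP6 and RNA18SP2 in GRCh38, plus-strand clusters lay between 10037769 and 10037885 of GRCh37 in both FLAG-Angel1 IPs. All 5 of replicate 1 and both of replicate 2 were enriched, with log2 folds from 1.96 to 4.46 and of 4.76 and 5.26. The clusters of replicate 1 abutted one another from 10037769 to 10037794 and again from 10037841 to 10037885. Abutting clusters can share reads, so these are not independent sites. Their ratios reached 311 IP to 3 input reads in replicate 1, where the ratio of library sizes was 4.70, and 104 to 3 in replicate 2. Within replicate 2 their log2 folds lay above 0, whereas those of the pair in the 45S stretch lay below 0. Whether these Y clusters lie over a pseudogene was not determined, because the builds differ. Their positions show where reads aligned, and not from which copy or chromosome the RNA came. The FLAG-only IP had no cluster there. With 5717 clusters in its list and 0.0646 times the reads of its input, this does not show an absence of background. On the mitochondrial chromosome, which encodes the ribosomal RNAs of the mitochondrial ribosome among other RNAs, the medians were 0.06 over 76 clusters of replicate 1 and 0.40 over 105 of replicate 2. These medians also lay below those of the whole lists, while 42.1% and 50.5% of the mitochondrial clusters were enriched. In the FLAG-only IP the median over 36 mitochondrial clusters was -0.18, against 5.20 over its list. There 8.33% of the mitochondrial clusters were enriched, against 91.8% of its list.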

How the data were processed

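The eCLIP libraries were 3 IPs and their 3 size-matched inputs, sequenced as single-end reads and processed with the Yeo laboratory's eCLIP pipeline. The submitters' processing notes name cutadapt, STAR, SAMtools and UMI-tools (versions not given in the sources used here) and the builds GRCh37 and hg19. The published form of that pipeline sets aside reads that match repeated elements, ribosomal RNA included, before genome alignment and keeps reads with 1 place in the genome. Whether this was done here is not given in the sources used here, and it would bear directly on reads from a 45S repeat. Clusters were called in each IP separately. The deposited log2 values are the fold of IP over input per cluster, and the deposited −log10 values are of the authors' P. The inputs were not analysed here on their own.

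The members and comparisons were chosen with earlier results of these data known. Positions are counted from 1 on GRCh37. Counts of enriched clusters, medians, same-strand overlaps of at least 1 nt and windows (a cluster belongs to the 500 nt window of its centre) were computed with Python 3.11.15, pandas 2.3.3, numpy 2.4.6, scipy 1.17.1 and bedtools 2.31.1, and figures with matplotlib 3.10.9. Clusters to be named were, by rule, the 5 enriched members with the highest −log10 P per IP and strand, every reproducible peak, the window with the most enriched clusters per strand and every FLAG-only member. The rule named none, and those in the text were chosen after their values were seen. Reads were inferred as ratios with up to 2000 input reads, and from P (tolerance 0.0001 on −log10 P) by the exact binomial form, or by chi-square with continuity correction from 5 reads. Recovery of ratios and of overlaps was tested on simulated data. Alternatives covered thresholds, strand, overlap, widths, windows and the 45S stretch alone.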

Additional observations from a re-analysis of the deposited data

How the results depend on the processing

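Several settings could not move the counts of 0. Since no 21p cluster was enriched at 0.05, a threshold of 0.001, a log2 fold of at least 1 or 3, a weight by width, joining of abutting clusters or the 45S stretch alone could only leave the number and share of enriched clusters at 0, and so could other overlap rules, leaving out replicate 1 or replicate 2, or removing peaks over FLAG-only clusters for the 0 reproducible peaks. These say nothing about stability. With no threshold on P, a log2 fold above 0 alone gave 7 clusters in each replicate, and with any overlapping clusters admitted the count of peaks was 1 (both settings added after seeing the data). The median log2 fold was -0.23 in replicate 1 and from 0.14 to 0.31 in replicate 2 when weighted by width or limited to clusters of at least 20 nt, but -1.31 in place of 0.23 in the 45S stretch alone. The difference of replicate 2 from its list, -1.50, was -1.17 without the 45S stretch (likewise added) and -1.70 against the rest of chromosome 21. Occupied windows numbered 19, and from 16 to 21 with other widths or a moved grid. The share of enriched 21p clusters over FLAG-only clusters and the correlation between replicates gave no value, because no 21p cluster was enriched and 1 pair overlapped. No paired analysis was possible because FLAG-only has 1 replicate and shares fewer than 2 replicate numbers with FLAG-Angel1, while the pairing of each IP with its input is already in the log2 fold. The depth of the minus-strand clusters is known in lowest terms only, except where P gave the reads. The absence of 21p clusters from the FLAG-only IP, with 0.0646 times the reads of its input, does not show that the stretch was free of background there.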
